A study of Homo sapiens with 4 samples.

Results

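The identifiers described here belong to a pair of runs of neighbouring identifiers on chromosome 1, measured on arrays of KYSE 170 cells, an established esophageal cancer line. Each identifier is a transcript entry whose name gives a chromosome and a running number. The first run goes from TC01000001.hg.1 to TC01000347.hg.1 and the second from TC01002066.hg.1 to TC01002525.hg.1, called here the plus-strand run and the minus-strand run after the strand on which their genes proved to lie. The table holds 341 rows in the plus-strand run and 453 rows in the minus-strand run. Rows with the same values on all 4 arrays were counted once, which left 339 and 443 identifiers, 782 in all of 59792 in the whole table. Values with rows in both runs were counted in the plus-strand run only. The runs were chosen because their bright identifiers did not share the lower signals seen over the rest of chromosome 1 on the arrays labelled STMN1, so every difference between the groups given below is a description of that choice and carries no test.

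The study compared cells that received a pCMV6 plasmid with the full-length cDNA of STMN1 (2 arrays) with cells that received pCMV6 alone (2 arrays). STMN1 encodes stathmin, a protein that binds tubulin and destabilises microtubules. Both groups were transfected with Lipofectamine 2000 and selected as stable transfectants with G418 at 200 µg/ml, the antibiotic to which the plasmid gives resistance. The repeats are called biological, and the labels do not tell whether they are separate clones or separate cultures of 1 stable line. Over the 4 arrays the deposited log2 signals ran from 1.64 to 19.93, with array medians between 3.60 and 3.72, and 10930 identifiers of the whole table were bright, meaning a mean log2 signal of at least 6. Of 10 squamous epithelial markers looked up, 7 had an identifier of their own, and 6 of these were bright, with SFN the highest at 16.2 and only KRT14 under the threshold at 5.75. All 10 markers of immune, endothelial, fibroblast and muscle cells looked up were dim, with means between 2.90 and 4.43. The number of arrays limits the precision of every value.

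The identifier annotated to STMN1 gave no higher signal on the arrays labelled STMN1, and this cannot decide whether the transgene was expressed. The identifier annotated to both STMN1 and MIR3917 has the number 2383 and is itself a member of the minus-strand run. Its log2 signals were 5.86 and 5.77 on the arrays labelled STMN1, against 6.11 and 6.13 on the vector arrays, and the groups did not overlap. The signal was thus lower by 0.30 on the log2 scale on the arrays labelled STMN1, a 1.23-fold difference. Like every member, this identifier did not pass the limma test described below, with an adjusted p of 0.92. Which part of the transcript the identifier reads is not given in the sources used here, so it is not known whether it reads the transfected cDNA. Because the value does not bear out the label, the arrays are called those labelled STMN1 throughout, and each direction rests on that label.

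The start of chromosome 1 is the end of its short arm, a gene-dense region that is lost in several kinds of cancer. It holds housekeeping genes such as ENO1, an enzyme of glycolysis, beside gene families with narrow expression, such as the PRAME family members of the germ line and the peptidylarginine deiminases of skin. Genes of such a region lie on both strands of the DNA, so a numbering that follows 1 strand at a time lists the same region more than once.

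The promoter sequences below locate the members that moved furthest in each run, and show which strand each is read from. They cover 250 bases before to 50 bases after the annotated start and come from RefSeq, build GRCh38.p14, read 5′ to 3′ on the strand of the gene. Capitals mark matches to GAAANNGAAA, the core of the element bound by interferon-activated factors, searched on both strands, where matches may overlap. CLIC4 and CDA, of the plus-strand run, lie on the plus strand at chr1:24745197-24745496 and chr1:20588847-20589146. TNFRSF9 and IFI6, of the minus-strand run, lie on the minus strand at chr1:7940790-7941089 and chr1:27672143-27672442. ISG15, another interferon-stimulated gene of the plus-strand run, lies on the plus strand at chr1:1013247-1013546.
CLIC4: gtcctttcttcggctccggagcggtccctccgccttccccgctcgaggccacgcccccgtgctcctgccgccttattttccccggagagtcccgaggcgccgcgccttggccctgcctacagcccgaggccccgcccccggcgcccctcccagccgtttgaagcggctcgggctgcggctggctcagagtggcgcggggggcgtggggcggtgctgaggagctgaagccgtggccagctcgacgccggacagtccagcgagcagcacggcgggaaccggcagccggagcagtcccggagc
CDA: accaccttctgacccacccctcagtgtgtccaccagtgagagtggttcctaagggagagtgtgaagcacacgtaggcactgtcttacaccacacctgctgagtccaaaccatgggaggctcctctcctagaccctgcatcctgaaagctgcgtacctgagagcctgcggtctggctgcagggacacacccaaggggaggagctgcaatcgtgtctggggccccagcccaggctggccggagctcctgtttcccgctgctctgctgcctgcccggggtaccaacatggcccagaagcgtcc
TNFRSF9: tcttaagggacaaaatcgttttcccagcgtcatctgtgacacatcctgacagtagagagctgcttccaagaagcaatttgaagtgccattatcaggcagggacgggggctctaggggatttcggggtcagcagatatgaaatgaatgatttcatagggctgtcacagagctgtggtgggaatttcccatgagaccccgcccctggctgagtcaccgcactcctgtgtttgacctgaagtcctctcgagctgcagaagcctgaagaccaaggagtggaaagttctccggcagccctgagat
IFI6: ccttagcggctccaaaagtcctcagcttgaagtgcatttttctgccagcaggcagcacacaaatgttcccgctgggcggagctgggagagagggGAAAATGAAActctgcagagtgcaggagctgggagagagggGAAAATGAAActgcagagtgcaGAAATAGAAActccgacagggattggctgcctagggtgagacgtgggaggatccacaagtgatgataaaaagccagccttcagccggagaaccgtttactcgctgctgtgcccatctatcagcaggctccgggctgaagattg
ISG15: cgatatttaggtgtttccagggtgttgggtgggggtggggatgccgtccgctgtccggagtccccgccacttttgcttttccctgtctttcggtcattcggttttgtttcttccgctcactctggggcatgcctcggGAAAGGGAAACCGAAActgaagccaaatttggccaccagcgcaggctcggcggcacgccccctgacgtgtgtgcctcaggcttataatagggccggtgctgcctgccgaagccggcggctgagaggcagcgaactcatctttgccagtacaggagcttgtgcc

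The IFI6 promoter held 3 matches and the ISG15 promoter 2, while the windows of CLIC4, CDA and TNFRSF9 held 0. Of 27326 promoters of the same length, 996 held at least 1 match (3.65%) and 11 held at least 3. Among the 315 promoters found for the members, 6 held a match (1.91%). A match is a description of these letters and says nothing about binding.

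The numbering of chromosome 1 restarted by strand. Numbers 1 to 2049 followed the chromosome once from start to end: 97.5% of the steps between successive genes with a known place went forward, and 790 of 805 genes with a known strand lay on the plus strand (98.1%). The order returned to the start between number 2049, annotated to PGBD2, and number 2050, annotated to WASH7P. Numbers from 2050 up to but not including 4097 then followed the chromosome again, with 97.6% of steps forward and 738 of 743 genes on the minus strand (99.3%). Numbers from 4097 up to 6431 were mixed, with 41 plus-strand and 50 minus-strand genes, and only 5.59% of them carried a gene symbol. The same change of strand appeared within the numbers of all 19 chromosomes checked, with 98.1% to 100% plus-strand genes before it and 89.4% to 100% minus-strand genes after it.

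**Figure D1:**
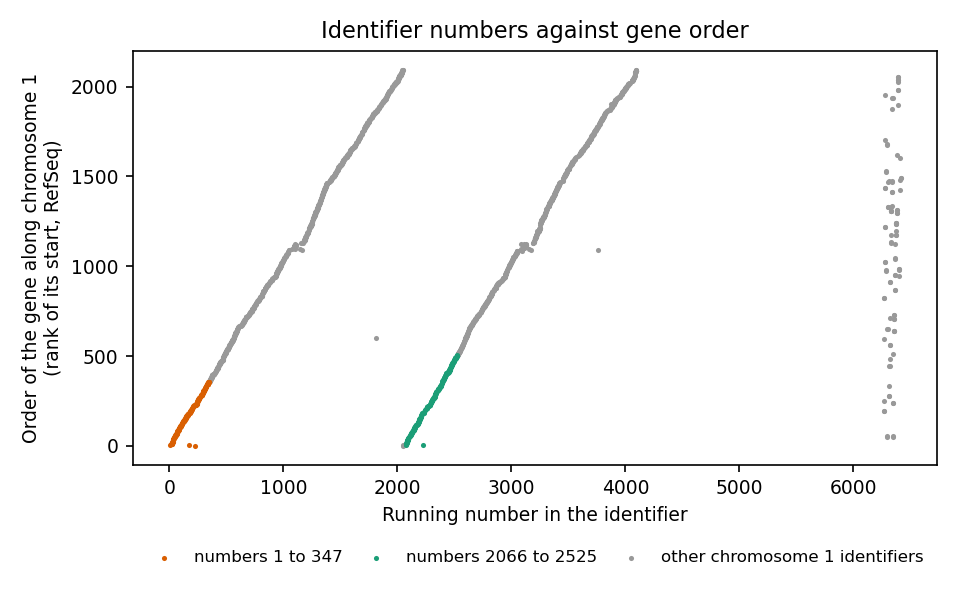
Running number of each chromosome 1 identifier (horizontal axis) against the order of its gene along the chromosome, as the rank of its start in RefSeq (vertical axis), with 1 point per identifier. The plus-strand run and the minus-strand run both sit at the low end of the gene order, on a pair of rising lines that are the plus-strand and minus-strand series, while the numbers from 4097 on are scattered over the whole order.

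The runs are therefore opposite strands of the same end of chromosome 1. In the plus-strand run, 141 of 142 genes with a known strand lay on the plus strand, the exception being PRAMEF10 at number 175, and 176 of 180 steps went forward. In the minus-strand run, all 177 such genes lay on the minus strand and 232 of 235 steps went forward. The plus-strand run ended at RPS6KA1, a ribosomal S6 kinase gene, and the minus-strand run reached further along the chromosome, to YRDC, an enzyme gene of tRNA modification. The plus-strand numbers that cover the genes between RPS6KA1 and YRDC are not members.

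A check that used signals in place of gene names gave a less clear picture. With each number series divided into 20 equal bins, the share of bright identifiers correlated between the series, split at the start of the minus-strand run, at r = 0.13 in the same order and at r = -0.52 in the reversed order, across bins that share their arrays. With the second series ended before 4097, an end chosen after the strands had been seen, the values were r = 0.39 in the same order and r = -0.18 in the reversed order. For the mean signal in place of the share, r was 0.32 in the same order and -0.49 in the reversed order over all numbers. With the end before 4097 the mean signal gave 0.57 in the same order and -0.29 in the reversed order.

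Identical rows also joined the strands. The members took part in 14 sets of rows with the same values on all arrays, 49 rows in all, of which 6 sets had rows in both runs and 9 had rows elsewhere. Numbers 220 and 2270 shared their values, as did 221 and 2269, and 167 and 2224. Numbers 218, 225, 2265 and 2274 shared the values of an identifier annotated to several RNU1 genes, which encode the U1 small nuclear RNA of the spliceosome. Such rows look like 1 measurement listed under several numbers, so the runs are not wholly separate measurements.

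Taken with all numbers, the members were brighter than the other chromosome 1 identifiers. In the minus-strand run, 122 of 443 identifiers were bright (27.5%), in the plus-strand run, 81 of 339 (23.9%), and among the other chromosome 1 identifiers 1022 of 5454 (18.7%). The median signal of the minus-strand run was 4.33 and 4.28 on the arrays labelled STMN1 and 4.32 and 4.36 on the vector arrays. That of the plus-strand run was 4.14 and 3.99 on the arrays labelled STMN1 and 4.10 and 4.03 on the vector arrays. Both runs lay above the other chromosome 1 identifiers on every array, whose medians were 3.70 and 3.60 on the arrays labelled STMN1 and 3.70 and 3.60 on the vector arrays.

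The minus-strand run exceeded the other chromosome 1 identifiers by 0.68 ± 0.07 in median log2 signal and the plus-strand run by 0.42 ± 0.03 (SD over n = 4 arrays). The difference between the minus-strand run and the plus-strand run was 0.26 ± 0.06. Each had the same sign on 4 of 4 arrays, with an exact two-sided sign-flip permutation p = 0.125. That is the smallest p that 4 arrays allow, so a p under 0.05 could not be reached. The same identifiers were read on every array, so the SD and p measure repeatability over arrays, not the spread over identifiers. The share of identifiers at or above 6 was higher than among the other chromosome 1 identifiers by 9.31 percentage points in the minus-strand run and by 5.66 in the plus-strand run. These levels depended on the many unnamed numbers from 4097 on, as alternatives added after the data were seen show. Against numbers below 4097 only, the excess in share was 3.64 percentage points for the minus-strand run and -0.02 for the plus-strand run, and among identifiers with a gene symbol it was 1.96 for the minus-strand run and -5.00 for the plus-strand run. The excess in median signal was 0.48 for the minus-strand run and 0.22 for the plus-strand run against numbers below 4097. Among identifiers with a gene symbol it was 0.49 for the minus-strand run and 0.03 for the plus-strand run. In the runs 58.3% of identifiers had a gene symbol, against 33.2% of the other chromosome 1 identifiers.

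Across the bright members the signals of the groups differed little. The median of all bright identifiers was set to 0 on every array, and the difference is the mean of the arrays labelled STMN1 minus the mean of the vector arrays, on the log2 scale. In the plus-strand run the median difference over 81 bright identifiers was 0.01, with quartiles of -0.14 and 0.23, and its sign was not stable, at -0.03 without STMN1 replicate 2 and -0.02 with arrays centred on bright identifiers outside chromosome 1. In the minus-strand run it was 0.06 over 122 bright identifiers, with quartiles of -0.10 and 0.21. The other 1022 bright chromosome 1 identifiers had a median of -0.33, with quartiles of -0.58 and -0.08, and the 9705 on other chromosomes a median of 0.03. This contrast is the one that chose the runs.

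Single pairs of arrays gave the same picture. The 4 differences between an array labelled STMN1 and a vector array had medians of -0.03 to 0.06 in the plus-strand run and of 0.04 to 0.08 in the minus-strand run, against -0.37 to -0.31 among the other bright chromosome 1 identifiers. Between arrays of the same group, the medians in the plus-strand run were -0.06 for the arrays labelled STMN1 and -0.03 for the vector arrays, larger than the difference between the groups. In the minus-strand run both within-group medians were 0.01, smaller than the difference of 0.06. These medians keep the sign, so opposite differences cancel. Without signs, the median difference in the minus-strand run was 0.20 within each group and 0.17 between the group means. In the plus-strand run it was 0.21 (labelled STMN1) and 0.23 (vector) within the groups and 0.17 between the group means. A mean of 2 arrays varies less than a single array. Below 0 lay 37 of 81 bright identifiers in the plus-strand run and 48 of 122 in the minus-strand run, against 829 of 1022 of the others.

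**Figure D2:**
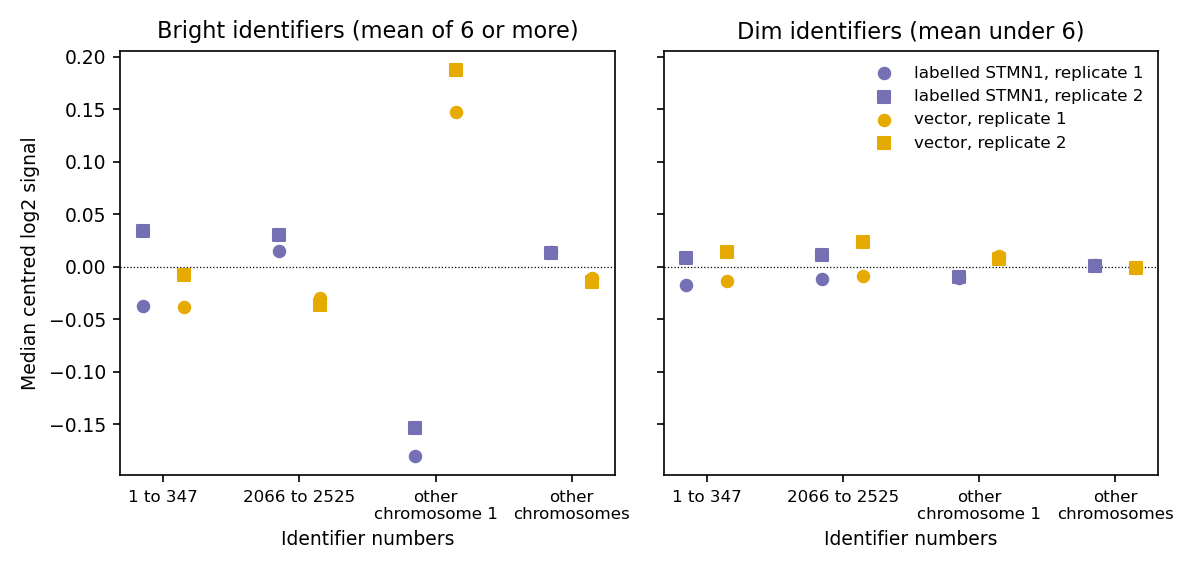
Median centred log2 signal of each identifier set on each of the 4 arrays, for bright identifiers (left panel) and dim identifiers (right panel), with the arrays labelled STMN1 left of the vector arrays in each set. The bright other chromosome 1 identifiers sit at -0.18 and -0.15 on the arrays labelled STMN1 and at 0.15 and 0.19 on the vector arrays, while all points of the runs lie between -0.04 and 0.03.

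The dim identifiers had medians close to 0 in and outside the runs. The median difference of identifiers with a mean under 6 was 0.01 over 258 in the plus-strand run, 0.00 over 321 in the minus-strand run and -0.02 over 4432 among the other chromosome 1 identifiers. The contrast that chose the runs was thus seen among bright identifiers. Without detection calls it is not known how many dim identifiers lie above background. Medians near 0 there do not show that the contrast is absent. Just above the threshold lay NADK at 6.01, TNFRSF9 at 6.05 and ACOT7 at 6.08, with differences of 0.15, 1.58 and 0.16. Just under it lay the identifier annotated to STMN1 and MIR3917 at 5.97 with a difference of -0.32, an unnamed identifier at 5.99, with a difference of 0.02, and the unnamed TC01002490.hg.1, the nearest to the threshold from below, with a difference of -0.71.

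The plus-strand run had medians close to 0 along its length, and those of the minus-strand run spread more widely. The bright identifiers of each run were divided by number into 4 parts of nearly equal size. In the plus-strand run the medians of the parts were 0.05, 0.00, 0.02 and 0.01. In the minus-strand run they were 0.16, 0.06, 0.11 and -0.04, and in the last part, from number 2422 to YRDC, all 4 pairs of arrays were below 0, between -0.11 and -0.05. These pairs share arrays, and the arrays of the same group differed in that part by 0.04 (labelled STMN1) and 0.03 (vector), about as much as the groups did. Its median lay nearer to 0 than that of the other bright chromosome 1 identifiers.

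Gene order put this last part beside plus-strand numbers that are not members. Between the chromosome start and RPS6KA1, the bright genes with a symbol of their own had a median difference of 0.03 on the plus strand (55 genes) and 0.11 on the minus strand (65 genes, 64 of them members). Also in that stretch lay 7 bright genes with numbers from 4097 on, which are not members, and their median was 0.21. They were CDK11B, SLC35E2B, SLC35E2A, GNB1, IFFO2, MICOS10 and SELENON, with differences between -0.33 for IFFO2 and 0.37 for CDK11B.

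From the gene after RPS6KA1 to YRDC the medians were -0.05 for the 27 minus-strand members and -0.18 for the 39 plus-strand genes that are not members. Beyond YRDC they were -0.38 on the plus strand (249 genes), -0.39 on the minus strand (249 genes) and -0.34 among later numbers (34 genes). In bins of 20 bright genes of all numbers in chromosome order, the 6 bins up to PAQR7 had medians between -0.04 and 0.17. The next bin, PAFAH2 to STX12, had 0.07, the bin RPA2 to TMEM39B had -0.07 and the bin KPNA6 to PSMB2 had -0.23. Within those 3 bins the vector arrays differed from each other by 0.19, 0.23 and 0.05. Later bins were uneven. MACF1 to SLC2A1 had -0.25, C1orf210 to TOE1 -0.09 (pairs of arrays from -0.23 to 0.05) and EPS15 to TMEM59 -0.39. MRPL37 to AK4 had -0.15, and the lowest bin, GNAI3 to BCAS2, had -0.61. The medians beyond YRDC thus pool shallow and deep stretches, and no sharp place of change can be read from the bins.

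**Figure D3:**
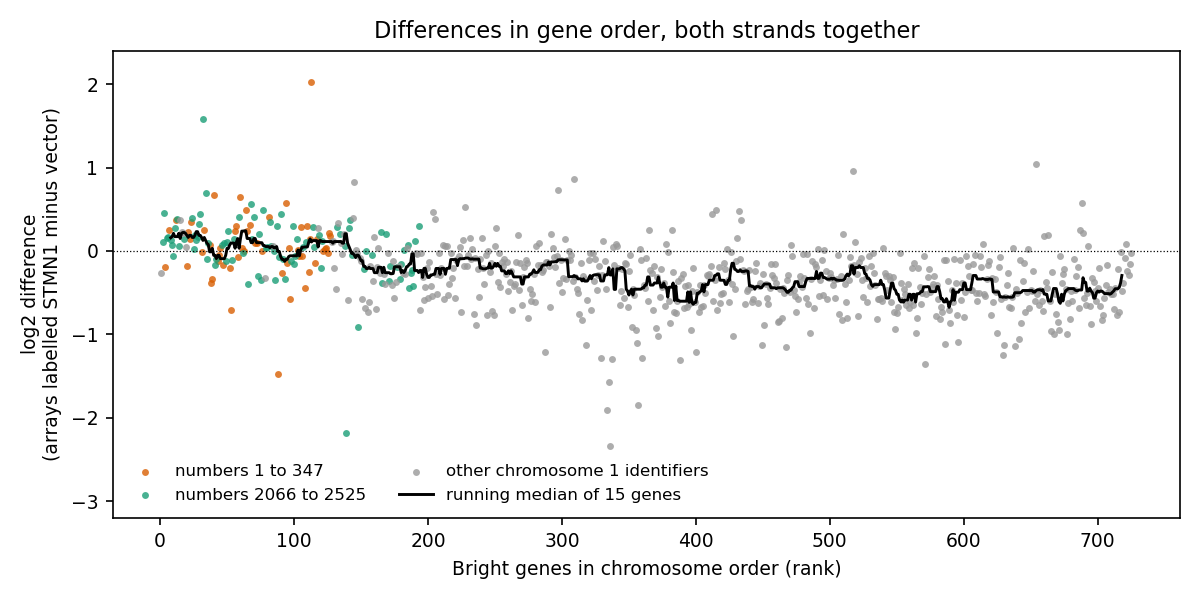
Difference in log2 signal, arrays labelled STMN1 minus vector arrays (vertical axis), for each bright chromosome 1 gene with a symbol of its own, in chromosome order (rank, horizontal axis), with a running median over 15 genes. Members of the plus-strand run lie around 0 and stop before the median falls, and members of the minus-strand run reach into the fall. Genes beyond YRDC have medians of -0.38 to -0.39 on the strands, with an uneven running median.

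The bright identifiers at the ends of the runs are single values, with no test, and do not show how sharp the chosen limits are. The last bright identifier of the plus-strand run was RPS6KA1 at 0.18, and the next outside it was ARID1A, a subunit of the SWI/SNF chromatin remodelling complex, at 0.11. The last bright identifier of the minus-strand run was YRDC at 0.30, and the next outside it was MTF1, a metal-responsive transcription factor, at -0.71. Values near that end were mixed: GNL2 at -0.425 and AIRIM at 0.11 inside, INPP5B at -0.03 and SF3A3 at -0.32 outside. At the lower end of that run the unnamed first identifier had -0.03, and the unnamed number 2064, just outside, had -0.82. The groups of number 2064 overlapped, and the order had already returned to the chromosome start at number 2050. The first bright identifier of the plus-strand run was number 5, annotated to several genes, at 0.05.

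No member passed the test across the whole table. In limma, 647 of the 782 members lay above the 25th percentile of mean signal and were tested among 44844 identifiers, and 0 had an adjusted p under 0.05 in either direction, as did 0 of all identifiers tested (0.0%). At an unadjusted p under 0.05, 18 members were higher and 14 lower on the arrays labelled STMN1, beside 2.56% and 3.38% of all identifiers tested. They were 9 higher and 28 lower without vector replicate 1, and 21 higher and 8 lower without STMN1 replicate 1. These counts use the contrast that chose the runs.

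Groups that did not overlap, with both arrays labelled STMN1 above or below both vector arrays, were counted on the deposited values. Among bright members 47 of 203 were higher (23.2%) and 29 were lower (14.3%), beside 18.7% and 19.5% of all bright identifiers. By run these were 16 higher and 13 lower of 81 in the plus-strand run, and 31 higher and 16 lower of 122 in the minus-strand run. Among the other bright chromosome 1 identifiers, 48 were higher and 566 lower of 1022. Of the genes named below, CLIC4, CDA, TNFRSF9, IFI6, ENO1 and the RNU1 identifier came from a rule on size and brightness in each run, and all others, with their groups, were chosen after the values had been seen.

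CLIC4, an intracellular chloride channel family protein, had the largest higher difference of the plus-strand run. Its log2 signals were 9.42 and 9.08 on the arrays labelled STMN1, against 7.04 and 7.44 on the vector arrays. The groups were further apart than the arrays of either group. The centred difference was 2.02, with values of 1.80 to 2.24 when any 1 array was left out. In RNA from whole cultures, a change in the share of cells and a change per cell cannot be told apart. CDA, cytidine deaminase, which salvages pyrimidines, had the largest lower difference of that run. Its signals were 6.49 and 6.99 on the arrays labelled STMN1, against 8.64 and 7.81 on the vector arrays, a difference of -1.47. It rested in part on 1 array, with -0.98 without vector replicate 1 and -1.98 without vector replicate 2.

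TNFRSF9, a costimulatory receptor of the TNF receptor family, had the largest higher difference of the minus-strand run. Its signals were 7.66 and 6.01 on the arrays labelled STMN1, against 5.13 and 5.41 on the vector arrays, a difference of 1.58. The arrays labelled STMN1 were far apart, and the difference was 0.69 without STMN1 replicate 1 and 2.45 without STMN1 replicate 2. Its mean passed the threshold of 6 only through the arrays labelled STMN1, since both vector arrays lay under it, so its place among bright members rests on the difference itself. Of the 5 TNF receptor family identifiers with a symbol of their own, the others, TNFRSF4, TNFRSF8, TNFRSF14 and TNFRSF18, were dim.

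IFI6, an interferon-induced mitochondrial protein gene, had the largest lower difference of both runs. Its signals were 7.15 and 7.98 on the arrays labelled STMN1, against 10.42 and 9.11 on the vector arrays. Every array labelled STMN1 was below every vector array, though the vector arrays were far apart. The difference was -2.19, and it was -1.45 without vector replicate 1 and -2.93 without vector replicate 2. ISG15, a ubiquitin-like interferon-stimulated gene, was dim, with signals of 3.70 and 4.21 on the arrays labelled STMN1 and of 4.22 and 3.96 on the vector arrays, which overlapped. The promoters printed above hold the element in both genes, and only IFI6 was bright on these arrays.

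Regulators of epithelial cells were among the members with higher signals. Of 5 such genes, the 4 bright ones, EPHA2, ERRFI1, PDPN and KDF1, were all higher without overlap, with differences of 0.21 to 0.69. Of all bright identifiers, 18.7% were higher and 19.5% lower without overlap. The remaining gene, the dim GRHL3, was lower without overlap, and those shares do not cover dim identifiers. ERRFI1, a feedback inhibitor of the EGF receptor, had 12.48 and 12.55 on the arrays labelled STMN1, against 11.64 and 12.03 on the vector arrays. PDPN, the membrane glycoprotein podoplanin, had 7.75 and 7.77 on the arrays labelled STMN1, against 7.13 and 7.13 on the vector arrays, the tightest groups of the 4. EPHA2, an ephrin receptor kinase, had 9.29 and 9.09 on the arrays labelled STMN1, against 8.56 and 8.72 on the vector arrays.

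GRHL3, a transcription factor of epidermal differentiation, went the other way but was dim. Its signals were 5.06 and 5.15 on the arrays labelled STMN1, against 6.18 and 5.82 on the vector arrays. The difference of -0.91 was the lowest of all dim members. Vector replicate 1 lay above 6 and both arrays labelled STMN1 under it. The place of GRHL3 among dim members thus rests in part on the difference itself. Of 10 squamous markers looked up, the 7 measured all lie outside the runs. Of these, 5 were lower and 1 higher without overlap on the arrays labelled STMN1, beside 19.5% and 18.7% of all bright identifiers. KRT14, 1 of the lower markers, was dim at a mean of 5.75, so those shares do not cover it. The basal keratin KRT5 had 6.25 and 7.23 on the arrays labelled STMN1, against 9.01 and 8.56 on the vector arrays. The desmosomal cadherin DSG3 was the higher one, at 9.55 and 9.63 on the arrays labelled STMN1 against 9.23 and 8.78 on the vector arrays, and the desmosomal protein DSP overlapped. Their part in the values of the members was not tested. The group of regulators and the marker list are small and were chosen after their values were seen. Their counts are no result about epithelial genes.

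**Figure D4:**
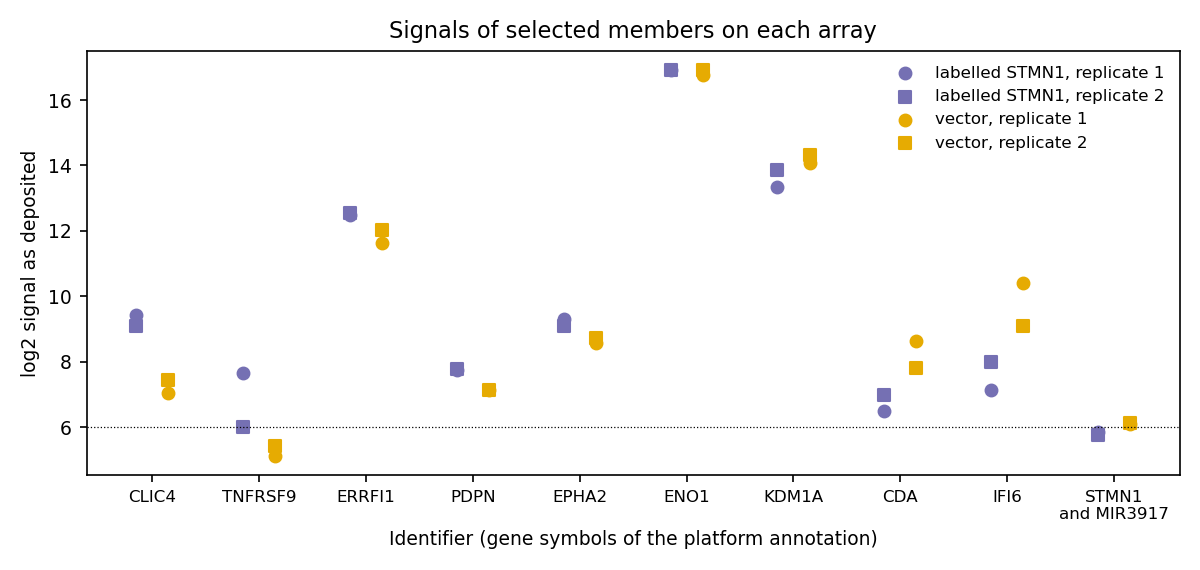
Deposited log2 signals of selected members on each array, with the arrays labelled STMN1 left of the vector arrays for each identifier and a dotted line at the threshold of 6. The groups lie apart for CLIC4, TNFRSF9, ERRFI1, PDPN, EPHA2, KDM1A, CDA and IFI6, while those of ENO1 overlap, and the identifier annotated to STMN1 and MIR3917 sits near the threshold with 5.86 and 5.77 on the arrays labelled STMN1 and 6.11 and 6.13 on the vector arrays.

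Small RNAs of splicing and RNA modification were lower or level. Of 7 identifiers, 5 were bright, with a median difference of -0.32. Of these, 3 did not overlap, all lower, beside 18.7% higher and 19.5% lower of all bright identifiers. Bright RNAs of these kinds elsewhere on chromosome 1, with a known place, ran from -1.36 for SNORD78 to -0.08 for RNU11. Lower values were thus not particular to the runs. SNORD99, a small nucleolar RNA, had 13.83 and 14.65 on the arrays labelled STMN1, against 15.41 and 14.90 on the vector arrays. RNU5E-1, a U5 small nuclear RNA, had 13.28 and 13.79 on the arrays labelled STMN1, against 13.98 and 14.54 on the vector arrays, so that the groups lay closer to each other than the arrays of either group. RNU6-37, whose values stood in 10 identical rows on several chromosomes, had a difference of -0.32.

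The brightest member of the plus-strand run was the identifier annotated to several RNU1 genes, with a mean of 18.07. Its signals were 17.53 and 17.91 on the arrays labelled STMN1, against 18.18 and 18.66 on the vector arrays. Since such RNAs are short and present in many copies, its rows cannot be assigned to 1 gene. The proteins of splicing showed no common direction. Of 9 bright identifiers 1 was higher and 1 lower without overlap, beside 18.7% and 19.5% of all bright identifiers. The median difference of the 9 was 0.05, between -0.21 and 0.30.

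Genes of mitochondria had a median difference of 0.30 over 9 bright identifiers of 13, of which 4 were higher and 2 lower without overlap, beside 18.7% and 19.5% of all bright identifiers. With the dim ones included, 4 of the 13 were higher and 4 lower. Those shares cover bright identifiers only, and none was computed over bright and dim together, so this count stands without a comparison. IFI6, also a mitochondrial protein gene, was placed with the interferon-stimulated genes and is not in these counts. It was lower without overlap, at -2.19. SLC25A33, a mitochondrial pyrimidine nucleotide carrier, had 9.95 and 9.34 on the arrays labelled STMN1, against 8.74 and 9.25 on the vector arrays, which do not overlap but nearly touch. DNAJC11, a factor of the cristae-organising complex, had 10.14 and 10.60 on the arrays labelled STMN1, against 9.95 and 9.95 on the vector arrays. MRPS15, a protein of the small mitochondrial ribosomal subunit, went the other way, at 9.13 and 9.31 on the arrays labelled STMN1 against 9.34 and 9.64 on the vector arrays. MRPL20, of the large subunit, was higher by 0.27, so the ribosomal proteins of mitochondria in the runs differed in direction.

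Genes of the ribosome and the nucleolus were all bright, 7 of 7, with a median of 0.19. Without overlap, 3 were higher and 1 lower, beside 18.7% and 19.5% of all bright identifiers. NOC2L, a nucleolar factor of ribosome assembly, had 10.35 and 10.99 on the arrays labelled STMN1, against 10.18 and 10.27 on the vector arrays. GNL2, a nucleolar GTPase, was the lower one, at 9.86 and 10.08 on the arrays labelled STMN1 against 10.66 and 10.15 on the vector arrays. GNL2 has the number 2519, in the last part of its run. The ribosomal protein genes RPL11 and RPL22 overlapped, with differences of 0.01 and 0.19.

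Of 3 genes of sugar metabolism, ENO1 and PGD overlapped between the groups and H6PD did not. ENO1, the glycolytic enolase, was the brightest member counted in the minus-strand run. It had 16.92 and 16.91 on the arrays labelled STMN1 and 16.76 and 16.91 on the vector arrays. The brighter RNU1 values also stand at numbers 2265 and 2274 of that run, but were counted in the plus-strand run. PGD, an enzyme of the pentose phosphate pathway, had 14.04 and 14.13 on the arrays labelled STMN1 and 14.10 and 14.04 on the vector arrays. H6PD, which acts in the same kind of reaction within the endoplasmic reticulum, was lower without overlap, by 0.38. Of the cell death genes, CASP9 and DFFA, an initiator caspase and the inhibitor of the caspase-activated nuclease, were bright, with differences of -0.03 and 0.07, and DFFB and TP73 were dim.

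Chromatin regulators went both ways. Of 10, 7 were bright, with a median of -0.07. Without overlap, 1 was higher and 1 lower, beside 18.7% and 19.5% of all bright identifiers. RCC2, a chromosome-associated regulator of cell division, had 15.80 and 15.67 on the arrays labelled STMN1, against 15.29 and 15.23 on the vector arrays. KDM1A, a histone lysine demethylase, had 13.35 and 13.85 on the arrays labelled STMN1, against 14.08 and 14.31 on the vector arrays. They lie on opposite strands and in different runs, and both groups were narrower than the distance between them for RCC2, but not for KDM1A.

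Much of the runs was dim, including whole gene families. All 12 PRAMEF identifiers with 1 symbol, of 9 genes of a germ-line family, had means between 2.65 and 3.55. All 6 secreted phospholipases A2 lay between 2.79 and 3.52, the 3 chains of complement C1q, a product of macrophages, between 3.19 and 3.81, and the 4 HES family repressors between 3.01 and 4.92. Of the 5 peptidylarginine deiminases, which convert arginine in proteins to citrulline, only PADI3 was bright. Its signals were 14.42 and 14.55 on the arrays labelled STMN1 and 14.43 and 14.56 on the vector arrays, a difference of 0.00, while the other 4 genes of the same cluster were dim.

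MicroRNA genes were also dim on these arrays, with 17 of the 18 that had a symbol of their own below 6. The arrays read long transcripts and their precursors at best, so these signals are not levels of mature microRNAs. The runs hold the microRNA 200b, 200a and 429 cluster, which keeps epithelial cells from turning mesenchymal by repressing ZEB transcription factors. Its mature forms are shown because neighbours in the numbering need not share a seed, the part that pairs with targets. They come from RefSeq, build GRCh38.p14, and capitals mark the seed, bases 2 to 8.
hsa-miR-200b-3p: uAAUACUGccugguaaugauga
hsa-miR-429: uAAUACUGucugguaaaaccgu
hsa-miR-200a-3p: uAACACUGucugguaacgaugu

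The seeds of hsa-miR-200b-3p and hsa-miR-429 are the same, AAUACUG, and that of hsa-miR-200a-3p is AACACUG. Numbers 27, 28 and 29 carry these genes in the order MIR200B, MIR200A, MIR429. MIR200B had 4.34 and 3.86 on the arrays labelled STMN1 and 4.03 and 3.87 on the vector arrays. MIR200A had 2.47 and 2.45 on the arrays labelled STMN1 and 2.24 and 2.41 on the vector arrays. MIR429 had 2.80 and 3.00 on the arrays labelled STMN1 and 2.68 and 2.83 on the vector arrays. All differences were between 0.12 and 0.14 at signals near the bottom of the scale.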

How the data were processed

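RNA of KYSE 170 cells was hybridised to 4 arrays in a single colour, 2 labelled STMN1 and 2 vector. Per the labels' protocols, RNA came from a mirVana kit, and 0.2 µg of it was made into cRNA carrying Cy3. The submitters' processing notes list Agilent Feature Extraction 10.7.1.1. The deposited table holds log2 signals per identifier and array; that scale was read from the values. For background correction, normalization, spot filters and genome build, no setting is given in the sources used here, and detection calls are lacking. Identifiers of this form are usual for Affymetrix transcript clusters, and the labelling kit is Agilent's, so how rows were made from spots is unknown.

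GEO's platform annotation gave 22513 of 60789 rows a gene symbol. Among chromosome 1 identifiers 2138 had 1 symbol, and no gene was named from an identifier with several. Gene order came from the RefSeq gene table of assembly GRCh38.p14, strand and promoters from its promoter table. Signals were analysed as deposited by the authors, in R 4.3.3 with lmFit and eBayes of limma 3.58.1 (two-sided test, Benjamini-Hochberg adjustment, threshold 0.05), on identifiers above the 25th percentile of mean signal. The fit was tested on simulated data. For medians, each identifier was set relative to its mean and each array centred on the median of all bright or of all dim identifiers. Levels were compared by an exact sign-flip permutation test over arrays. Python 3.11.15 was used for the rest.

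Members and lists were chosen with earlier results of these data known. In each run the named genes are the bright identifiers with the largest higher and lower difference among those whose groups do not overlap, those next to each end, and the brightest below the ceiling; this rule assumed that no gene names would be known. All other genes, the gene groups and the cell type markers were chosen after their values were seen. p-values measure the spread between these arrays, which may be technical. Alternatives covered the centring, the brightness threshold, the counting of identical rows, the filter, the normalization, a replicate block and the omission of each array.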

Additional observations from a re-analysis of the deposited data

How the results depend on the processing

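Of 206 alternative values, 173 either stayed within the spread between arrays, kept their side of a test or stayed within 1.5 times a count, and 11 changed sign, 8 of them medians close to 0 within the runs. In every fit 0 members passed the adjusted threshold. The other 3 that changed sign were shares of identifiers at or above the threshold: the minus-strand run minus the plus-strand run was -0.81 percentage points at a threshold of 8, and the plus-strand run minus the other chromosome 1 identifiers was -5.00 among identifiers with a gene symbol and -0.0168 among numbers below 4097. The median difference of the bright minus-strand run was 0.0514 without centring, 0.0383 centred on bright identifiers outside chromosome 1, 0.0731 after quantile normalization, 0.0451 at a threshold of 5, 0.0542 with identical rows counted separately and 0.0333 as a mean. That of the other bright chromosome 1 identifiers was -0.36 centred outside chromosome 1, -0.26 at a threshold of 5, -0.42 at a threshold of 8 and -0.37 over identifiers with 1 gene symbol. That of the other dim ones was -0.0054 without centring and -0.0292 without the lowest 25 percent. Leaving out each array in turn gave -0.0339 to 0.0444 for the bright plus-strand run, 0.0592 to 0.0751 for the bright minus-strand run, -0.0178 to 0.0103 for the dim plus-strand run and -0.0223 to -0.0126 for the other dim identifiers, and the dim minus-strand run reached -0.0166. The bright plus-strand run was also below 0 without centring (-0.0024) and centred outside chromosome 1 (-0.0154), so its sign is not settled. The correlation of the share bright was 0.44 with 10 bins and 0.39 with the second series ended before 4097. The cause of these changes was not tested. The alternatives on gene symbols, on numbers below 4097 and on the end of the second series were chosen after seeing the data.

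The replicate numbers of the labels pair nothing known: the deviations of same-numbered arrays correlated at 0.14 over identifiers tested and at -0.10 over bright ones, and with a pair of numbers this cannot be settled. With the number as a replicate block, 0 members were higher and 0 lower at the adjusted threshold, and 20 were higher and 18 lower at an unadjusted p under 0.05. The array data carry no detection calls, so how many dim members lie above background cannot be given.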
